A study of Mus musculus with 3 samples.

Results

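The complement system was examined as 37 genes, out of 27179 in the count table, in epididymal fat of mice, in sorted adipose stem and progenitor cells. The genes were taken from a list of complement components, regulators and receptors, all 37 were found in the table by NCBI gene ID, and they were grouped into classical (8), lectin (6), alternative (4), terminal (7), regulator (9) and receptor (3) roles. The cells came from naive wild-type male mice of the strain given as C57B6, aged 12 weeks. After collagenase digestion, live cells were sorted that lacked CD45, CD31 and Ter119 and carried CD140a, Sca1 and PDPN. The 3 libraries form 1 group that shares all of this, nothing else was sampled for contrast, and the labels do not say whether each library was 1 of the 3 mice. The spread between libraries may therefore be technical in part.

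Complement is a cascade of plasma and tissue proteins that tags targets and recruits leukocytes. The classical arm starts when C1q, carrying the proteases C1r and C1s, binds a surface, and C1s then cleaves C4 and C2. The lectin arm reaches the same step through collectins or ficolins and the MASP proteases, and the alternative arm builds on C3 itself with factors B and D and properdin. All arms cleave C3 and then C5, after which C6 to C9 assemble a membrane pore, and regulators stop the cascade at each step. The liver makes most plasma complement, macrophages are a main source of C1q, and adipocytes are known for adipsin, which is factor D.

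The libraries held 32813373, 25060096 and 27275888 counts. Levels are CPM, that is, counts relative to TMM-scaled library totals. A count of 0 allows up to 3 counts, which is 0.0945, 0.119 and 0.107 CPM in libraries 1, 2 and 3, a limit for counting error alone, since PCR copies of a molecule are counted again. The genes of the sorted surface proteins were present, with Pdgfra (CD140a) at 1484 ± 14.5 CPM, Ly6a (Sca1) at 3254 ± 441 and Pdpn at 119 ± 31.9 (SD, n = 3). Of 10 macrophage and monocyte markers, 6 neutrophil, 5 B-cell, 6 endothelial and 6 hepatocyte markers, 0 reached 1 CPM in every library. The summed level of the macrophage list was 2.14, 4.72 and 0.750 CPM and that of the hepatocyte list 0.189, 0.0793 and 0.0357 CPM, with Cd163, Alb and Apoa1 at 0 counts. The mature adipocyte list had 1 of 8 detected (Fabp4), a summed level of 27.8, 99.7 and 75.0 CPM, and its defining genes Adipoq and Cidec at 0 counts. The mesothelial list had 1 of 8 detected (Nkain4) and summed to 20.7, 10.1 and 21.4 CPM, with Krt18 at 2, 192 and 96 counts, Msln at 2, 2 and 0 and Upk3b at 1, 1 and 0.

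Expression of the complement genes was split between detected genes and genes near 0 counts. Of 37 genes, 15 (40.5%) were detected, meaning 1 CPM or more in every library. This share is near that of all genes (35.0%) and of protein-coding genes (43.7%). Another 17 had 3 counts or fewer in every library, among them 6 with 0 counts throughout (C1qb, Masp1, Colec11, Fcna, C9 and Cfi). The remaining 5 (C1rl, Cfd, Hc, C6 and C3ar1) lay between. The role groups hold 3 to 9 genes each, too few for their own detected shares to be set against those of all genes. At least 1 count over the 3 libraries was found for 31 of the 37 members and for 20001 of all 27179 genes. Genes at 0 counts were therefore not particular to this list. The share of all genes with 3 counts or fewer was not computed, so whether the 17 set the list apart is not known. The median gene of the list had 0.0971 CPM, against 0.108 over all genes and 1.90 over protein-coding genes. The members took 0.829%, 0.987% and 1.04% of all counts in libraries 1, 2 and 3, and C3, C1s1 and Serping1 made up 87.1%, 88.2% and 90.3% of the members' counts.

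**Figure D1:**
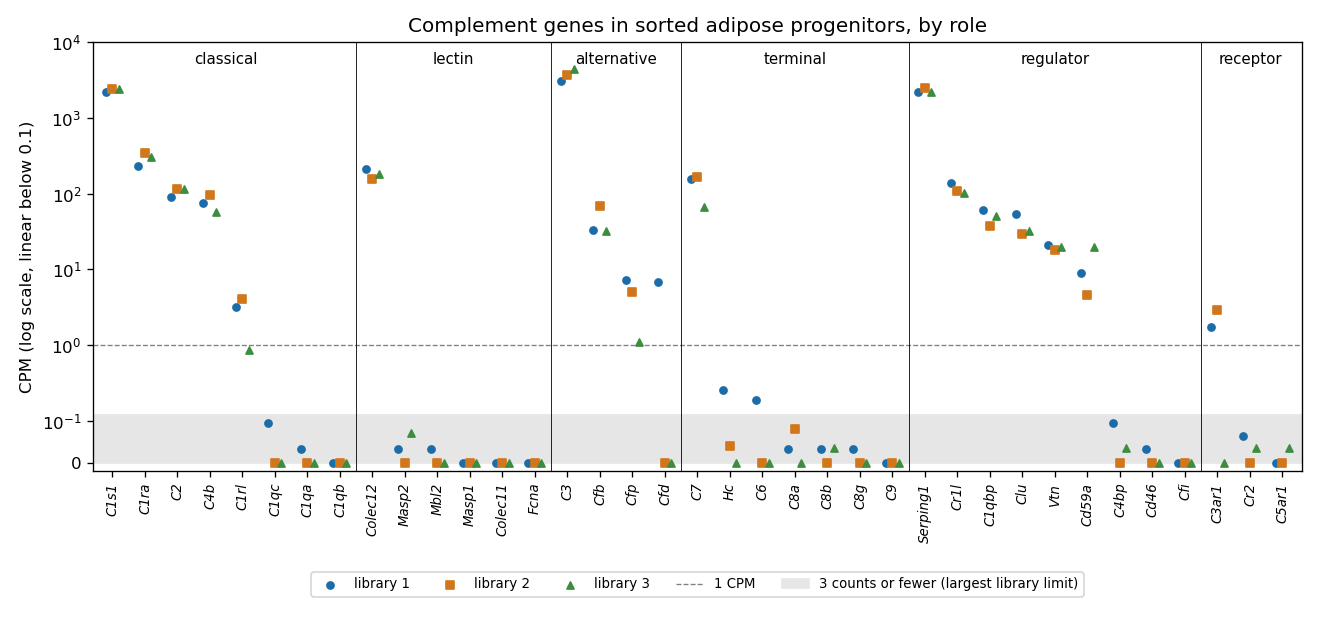
Level of each of the 37 complement genes in each of the 3 libraries, in CPM on a log axis that is linear below 0.1, grouped by role. Points in the grey band are at or below the largest of the libraries' 3-count limits (0.119 CPM), and the dashed line is 1 CPM. C1s1, C3 and Serping1 stand above all other members, and 17 genes have 3 counts or fewer in every library.

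Upstream sequences of the C3, C1s1 and C9 genes are shown because C3 and C1s1 were among the 3 most abundant members, C9 had 0 counts, and all carry the same short motif. Each run is the 250 bases before a RefSeq start (GRCm38.p6), written 5′ to 3′ on the gene's strand. Capitals mark matches to TTGCNNAA on either strand, a core that C/EBP factors can bind. The windows are chr17:57228137-57228386 (minus strand) for C3, chr6:124542360-124542609 (minus strand) for C1s1 and chr15:6445096-6445345 (plus strand) for C9.
C3: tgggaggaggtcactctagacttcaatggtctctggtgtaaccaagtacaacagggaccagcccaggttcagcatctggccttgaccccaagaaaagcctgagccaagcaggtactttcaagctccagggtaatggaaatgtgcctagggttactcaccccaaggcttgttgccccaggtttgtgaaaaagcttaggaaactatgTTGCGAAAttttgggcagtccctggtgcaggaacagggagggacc
C1s1: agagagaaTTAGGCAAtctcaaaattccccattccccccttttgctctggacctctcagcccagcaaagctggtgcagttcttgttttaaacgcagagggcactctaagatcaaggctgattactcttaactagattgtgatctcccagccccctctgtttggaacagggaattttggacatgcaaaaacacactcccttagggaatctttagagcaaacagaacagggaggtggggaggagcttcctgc
C9: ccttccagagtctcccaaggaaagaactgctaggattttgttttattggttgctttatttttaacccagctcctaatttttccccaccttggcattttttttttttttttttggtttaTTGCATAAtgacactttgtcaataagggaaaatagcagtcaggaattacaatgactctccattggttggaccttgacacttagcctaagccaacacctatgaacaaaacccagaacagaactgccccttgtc
The match began 45 bases before the start in C3, 242 bases before it in C1s1 and 132 bases before it in C9. C1s1 has 2 starts in the table, and the window of the other start held no match. The 5′ end of the C1s1 gene is at 124542392, so both C1s1 windows end inside the gene and their starts are internal. TTGCNNAA occurs in 9.56% of all 32851 windows of this length, and among the 30 windows of 28 members it was found in 4 (C3, C1s1, C1rl and C9). The interferon-type motif TTCNNNGAA (GAS) was found in 4 (C7, C8a, Colec11 and Masp2; 7.02% of all windows). The Masp2 window (148602294 to 148602543) lies wholly inside its gene, whose 5′ end is at 148594622. The windows of C8a and Colec11 end inside their genes, whose 5′ ends are at 104876487 and 28623458. Both strands were searched. Each motif was found in members that were detected and in members with 3 counts or fewer.

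In the classical arm, the genes of both proteases of the C1 complex were detected and those of their recognition unit were at or near 0 counts. C1s1 (gene 50908, chromosome 6, 124530344 to 124542392), which encodes the protease C1s that cleaves C4 and C2, stood at 2194, 2449 and 2440.2 CPM. C1ra (gene 50909, chromosome 6, 124512621 to 124523440), whose product activates C1s, stood at 229, 349 and 307 CPM. The libraries differed little for C1s1, and library 1 was the lowest for both genes. The 3 chains of C1q were at or near 0: C1qb had 0 counts, C1qa had 1 count and C1qc 3, all of them in library 1. Per kilobase of exon, C1s1 was at least 7163-fold higher than C1qb in every library, taking 3 counts per library for C1qb. Against the 3 counts of C1qc, the ratio per kilobase was 41092 (95% exact interval of the counts 14061 to 199263, which covers neither amplification nor the spread over libraries).

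Per kilobase of exon, C1s1 exceeded its partner C1ra by 9.13-fold, 6.69-fold and 7.57-fold in libraries 1, 2 and 3. On the scale of log2(CPM per kilobase + 0.5) the difference was 2.94 ± 0.22 (SD, n = 3), larger than its spread and of the same sign in 3 of 3 libraries (exact permutation by sign flips over libraries, two-sided, p = 0.25). This is the smallest p that 3 libraries allow, so none of the 8 pairs compared in this way could pass 0.05. The paralog C1rb had 4, 1 and 2 counts and C1s2 had 122, 28 and 18. Their transcripts match the coding sequences of C1ra and C1s1 at 97.88% and 95.68% identity, so counts within each of these pairs are uncertain where reads match both. C1rl, a C1r-like protease gene, was far lower at 3.18, 4.04 and 0.857 CPM, and its level in library 3 was below the other 2.

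The substrates of C1s were present at lower levels. C2 (gene 12263, chromosome 17, 34862602 to 34882100), the protease subunit of the classical C3 convertase, stood at 90.3, 117 and 115 CPM. C4b (gene 12268, chromosome 17, 34728139 to 34743902), which encodes the C4 that becomes covalently bound to surfaces, stood at 74.8, 95.7 and 56.7 CPM. C4b was lower than C2 by -1.06 ± 0.42 on the log2 scale per kilobase, in 3 of 3 libraries (exact permutation by sign flips, p = 0.25). Its relative C4a had 3, 2 and 1 counts, and its transcript matches C4b at 95.95% identity over the whole coding sequence, so C4b may have lost or gained reads in counting.

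Of the 6 lectin-arm genes, 5 were at or near 0 counts. The proteases Masp1 and Masp2 had 0 and 3 counts over the 3 libraries, and the circulating recognition proteins Mbl2, Colec11 and Fcna had 1, 0 and 0. Colec12 (gene 140792, chromosome 18, 9707648 to 9877995), a membrane collectin that also acts as a scavenger receptor, was the exception at 215, 155 and 181 CPM. Per kilobase of exon it was at least 242-fold higher than Colec11 in every library, against 3 counts per library. C1s1 exceeded Masp1, which encodes a protease that activates MASP-2, at least 64736-fold per kilobase of exon in every library, against 3 counts per library. Both folds rest on exon length. The exon and coding lengths were 9833 and 2199 bases for Masp1 and 8725 and 2226 for Colec12, so coding length would give other folds. Masp2 overlaps Tardbp, a gene on the opposite strand, by 3118 bases. The 3 counts of Masp2 cannot be told apart from reads of that strand because strandedness is not given in the sources used here. Masp1 overlaps Rtp4 (1390, 2916 and 787 counts), also on the opposite strand, by 1022 bases. How reads in that overlap were counted is not stated, so the 0 counts of Masp1 and its fold carry this limit.

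In the alternative arm, C3 dominated. C3 (gene 12266, chromosome 17, 57203967 to 57228136), the component on which all arms converge, stood at 3088, 3729 and 4485 CPM, lowest in library 1 and highest in library 3. Cfb (gene 14962, chromosome 17, 34856374 to 34862514), the protease subunit of the alternative C3 convertase, stood at 33.5, 68.8 and 32.5 CPM, close in libraries 1 and 3 and highest in library 2, 2.12-fold above the lowest. Per kilobase of exon, C3 exceeded Cfb by 50.6-fold, 29.8-fold and 75.9-fold and C4b by 45.7-fold, 43.2-fold and 87.6-fold. The log2 differences were 5.55 ± 0.66 and 5.75 ± 0.55, each positive in 3 of 3 libraries (exact permutation by sign flips, p = 0.25). Cfb lies 87 bases from C2, and GENCODE lists a read-through transcript (Gm20547) that matches 97.42% of the Cfb and 46.1% of the C2 coding sequence. How reads of such a transcript were counted is not stated, so Cfb and C2 are uncertain to that extent.

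The other alternative-arm genes were low. Cfp, which encodes properdin, the stabiliser of the convertase, stood at 7.12, 4.99 and 1.11 CPM, lowest in library 3. Cfd, the adipsin gene, was found in library 1 only, with 215 counts (6.77 CPM) against 0 and 0. In the same library the adipocyte genes Adig (91, 0 and 0 counts), Lipe (93, 24 and 0), Car3 (67, 1 and 0) and Plin1 (28, 0 and 1) were also highest. Fabp4 was lowest there (18.9, 98.6 and 72.9 CPM), Lep was highest in library 3 (5, 3 and 58 counts), and Adipoq and Cidec were at 0. The part of other cells in the Cfd value was not tested. In bulk samples, fewer cells of a type and less RNA per cell cannot be told apart.

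Of the 7 terminal genes, C7 alone was detected. C7 (gene 109828, chromosome 15, 4987750 to 5063773), which joins the C5b-6 complex and anchors it to the membrane, stood at 158, 164 and 65.6 CPM. Libraries 1 and 2 were close and library 3 was lower. Hc, the mouse C5 gene, had 8, 1 and 0 counts, C6 had 6, 0 and 0, and C8a, C8b and C8g had 3, 2 and 1 counts over the 3 libraries. C9, the pore-forming subunit, had 0. The 10981 counts of C7 against 6 of C6, its partner in assembly, gave a ratio per kilobase of 2432 (95% exact interval of the counts 1117 to 6629). The ratio of C3 to Hc, successive substrates of the cascade, was 43001 per kilobase (22652 to 94040), and both intervals cover counting error only.

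Regulators were led by Serping1 (gene 12258, chromosome 2, 84765360 to 84775444), which encodes the inhibitor of C1r, C1s and the MASP proteases. It stood at 2189.8, 2467 and 2211 CPM, with little spread. Per kilobase of exon Serping1 was the highest member at 985 ± 66.4, ahead of C1s1 at 755 ± 46.4 and C3 at 732 ± 136 (SD, n = 3). The means of their ranks over the libraries were 54, 68.7 and 71.3 of 21610 genes with a length. On that scale C1s1 and C3 did not differ beyond their spread, but this rests on the length used. In CPM without a length, C3 was the highest member in every library. It averaged 3767 ± 699, against 2361 ± 145 for C1s1 (SD, n = 3). The exon and coding lengths were 3129 and 2082 bases for C1s1 and 5143 and 4989 for C3. C1s1 minus Serping1 was -0.38 ± 0.085 on the log2 scale per kilobase, in 3 of 3 libraries (exact permutation by sign flips, p = 0.25), and 0.045 without a correction for length.

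Regulators at the cell surface and of C3b differed widely. Cr1l (gene 12946, chromosome 1, 195098711 to 195131570) encodes Crry, the broadly expressed membrane regulator of C3 convertases in the mouse, and stood at 137, 108 and 103 CPM. Cd46, a membrane cofactor that in mice is expressed mainly in the testis, had 1 count in all, although it overlaps Cr1l by 74 bases on the same strand. A processed pseudogene, Crry-ps, matches the Cr1l coding sequence at 96.59% identity and may have cost it reads. Cd59a, the membrane inhibitor of pore assembly, stood at 9.01, 4.64 and 19.4 CPM, lowest in library 2 and highest in library 3, and its paralog Cd59b at 4.22, 2.89 and 1.29. Cr1l minus Cd59a was 1.02 ± 1.01 on the log2 scale per kilobase, with the opposite sign in library 3 (-0.11; exact permutation by sign flips, p = 0.5). It was 0.61 without replicate 2 and 1.58 without replicate 3, and with coding length (1.76) or no length correction (3.54) it was positive in all 3 libraries. Cfi, the plasma protease that inactivates C3b and C4b, had 0 counts, and C3 was at least 13539-fold higher per kilobase in every library, against 3 counts per library. C4bp, a plasma cofactor for C4b cleavage, had 3, 0 and 1 counts.

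The genes of clusterin and vitronectin, fluid-phase inhibitors of the pore, were both detected. Clu stood at 53.5, 29.1 and 31.9 CPM and Vtn at 21.2, 17.9 and 19.6. Clu minus Vtn was 0.15 ± 0.35 on the log2 scale per kilobase, positive in library 1 alone (exact permutation by sign flips, p = 1.0). That order rests on the length used, since the difference was 0.98 with coding length and 0.90 with no length correction, each positive in all 3 libraries. C1qbp, whose product binds the globular heads of C1q and is found mostly in mitochondria, stood at 61.5, 36.9 and 51 CPM. It shares 88 bases with Rpain on the opposite strand.

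**Figure D2:**
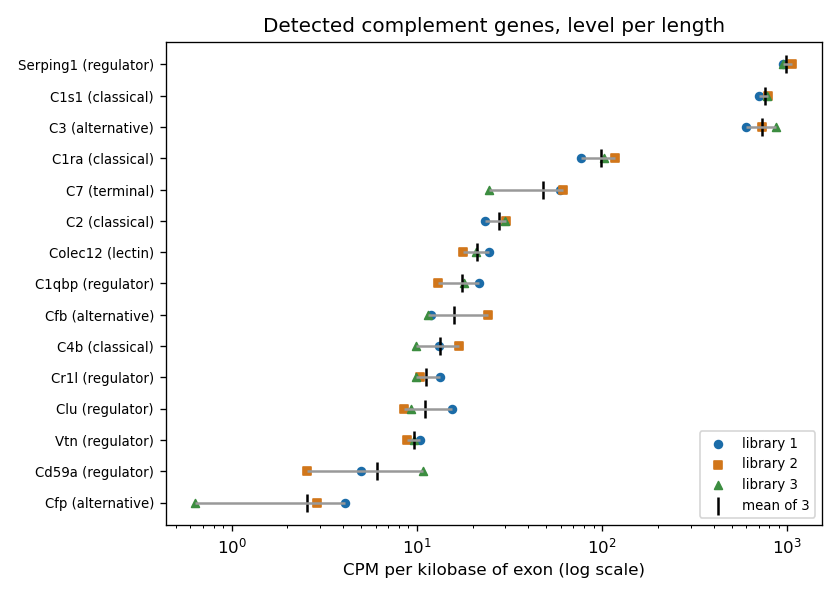
Level of the 15 detected complement genes in CPM per kilobase of exon (log axis). Symbols are the 3 libraries, ticks their means and grey lines their range. Serping1, C1s1 and C3 lie at means of 985, 755 and 732, and the next gene, C1ra, at 98.9.

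None of the 3 receptors was detected. C3ar1, the receptor of the C3a fragment, had 55, 73 and 0 counts (1.73, 2.89 and 0 CPM). C5ar1, the receptor of C5a, had 1 count in all, and Cr2, a receptor of C3 fragments on B cells and follicular dendritic cells, had 2, 0 and 1. The macrophage markers Csf1r (0.0630, 2.18 and 0.143 CPM) and Cd68 (0.221, 1.70 and 0) were highest in library 2, as C3ar1 was, whereas Mrc1 (27, 14 and 16 counts) and Lyz2 (25, 0 and 0) were highest in library 1. The summed macrophage list was lowest in library 3, where C3ar1 had 0 counts. The part of such cells in C3ar1 was not tested.

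**Figure D3:**
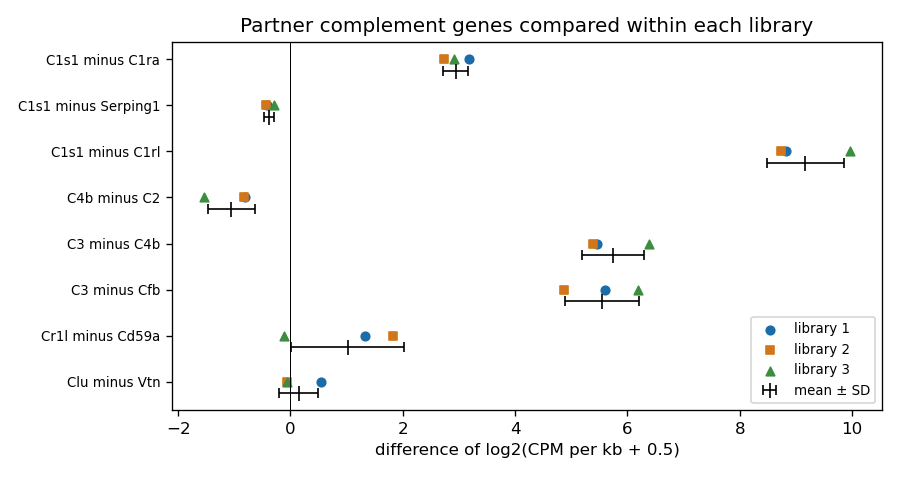
Differences between partner complement genes within each library, on the scale of log2(CPM per kilobase of exon + 0.5), with the mean and SD of the 3 libraries in black. The first 6 pairs keep 1 sign in 3 of 3 libraries, while Cr1l minus Cd59a and Clu minus Vtn cross 0.

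The detected members differed in their spread over the libraries. The coefficient of variation of the 15 detected members had a median of 20.6% (6.14% to 69.2%), where the median of all 9515 detected genes was 33.2%. These sets differ in level, since 12 of the 15 members but 4735 of the 9515 genes had 20 CPM or more in every library. Genes of like level were not compared, so the medians do not show that members varied less. The coefficient was highest for Cfp and Cd59a, and the mean of Cd59a, 11.02 CPM, was 6.82 without replicate 3. Over 13289 genes, edgeR's quasi-likelihood test compared each library with the remaining 2, on the assumption that its spread equals theirs. In each of the 3 comparisons 0 genes passed an adjusted p of 0.05 (0%), with 511, 659 and 674 genes at an unadjusted p under 0.05, and 0 of the 18 members tested passed. With 1 library on a side, even Cfd at 215, 0 and 0 counts did not pass, so the absence of calls does not show that levels were stable. Of the members, C7 in library 3 (log2 difference -1.29 ± 0.41 SE, unadjusted p = 0.012, edgeR adjusted p = 0.89) and Cfd in library 1 (unadjusted p = 0.026, edgeR adjusted p = 0.99) had an unadjusted p under 0.05. DESeq2's Wald test called 126, 199 and 197 genes in libraries 1, 2 and 3 and 0 members, with C7 in library 3 closest (DESeq2 adjusted p = 0.091).

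**Figure D4:**
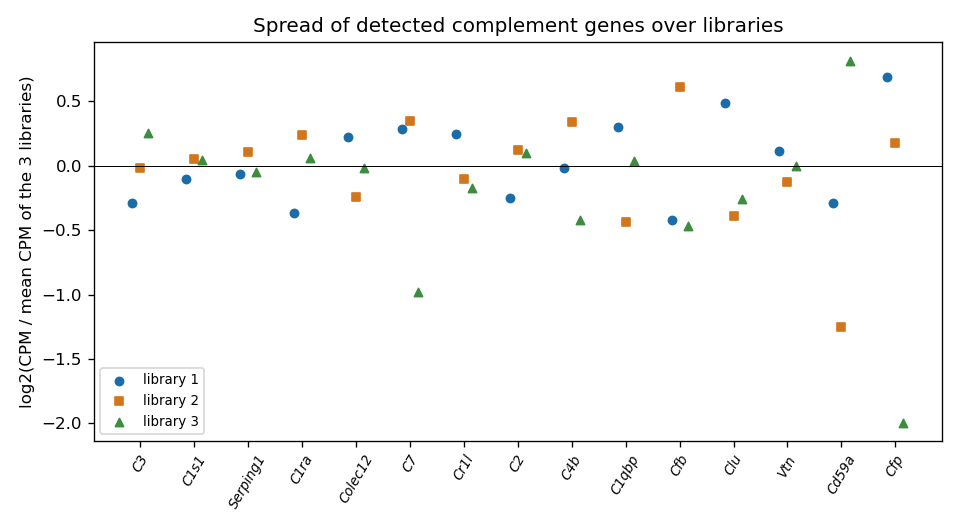
log2 ratio of each library's CPM to the mean CPM of the 3 libraries for the 15 detected complement genes, ordered by mean level. The points of C1s1 and Serping1 lie near 0, and the widest spreads are those of Cfp, Cd59a and C7, with library 3 low for Cfp and C7 and high for Cd59a.

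Among 27 other genes of the complement system, 5 were detected, where 35.0% of all genes and 43.7% of protein-coding genes were. They were led by Cd55, the membrane protein that speeds convertase decay, at 873, 917 and 853 CPM, and by Thbd, the thrombin receptor thrombomodulin, at 806, 788 and 813 CPM, each with little spread. Cd55 was 182 CPM per kilobase of exon on average, against 11.2 for Cr1l. Without a length the means were closer in ratio, at 881 and 116 CPM. The exon length of Cr1l was 10349 bases against a coding length of 1320, so its level per kilobase depends on the length used. Calr, a chaperone that binds C1q, stood at 51.6, 47.6 and 20.5 CPM, and the C1q-binding pentraxin gene Ptx3 at 69.8, 24.4 and 16.1, highest in library 1. Cd59b was the other gene. The C5a receptor gene C5ar2 had 3, 0 and 1 counts and the integrin genes of complement receptors 3 and 4, Itgam and Itgax, had 3 and 2 counts over the libraries. Itgb2, the beta chain they share, had 2, 0 and 279 counts, so a single library held nearly all of them.

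Genes of the C1q/TNF family, secreted or matrix proteins with a globular domain like that of C1q, were detected in 8 of 18 cases. That is near the share of all protein-coding genes (43.7%, and 35.0% of all genes). Emilin2, a matrix glycoprotein gene, stood highest at 309, 462 and 577 CPM, followed by C1qtnf1 at 207, 189 and 273 CPM, Emilin1 at 84.5, 51.8 and 80.7, C1qtnf7 at 61.2, 52.1 and 75.3 and C1qtnf2 at 53.1, 34.0 and 40.4. Adipoq, the adiponectin gene and an adipocyte product of the same family, had 0 counts.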

How the data were processed

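RNA of sorted cells was measured in 3 libraries. Per the labels' protocols, the kit was Clontech's SMARTer Ultra Low Input V4. STAR 2.3.0, CASAVA 1.8.2 and the build mm10 come from the submitters' processing notes. How reads were counted, on which annotation and with or without strand, is not stated in the labels. The deposited values are raw read counts, 1 row for each NCBI gene ID.

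From them, CPM with TMM library sizes were computed in edgeR 4.0.16 (R 4.3.3). Names and coordinates came from RefSeq GRCm38.p6, the assembly of mm10 (25275 of 27179 IDs matched), and exon lengths from GENCODE M21 (21610 IDs). Log2 values used a pseudocount of 0.5. Genes with 10 counts or more in at least 1 library entered the quasi-likelihood test, which was checked on simulated data, with Benjamini-Hochberg adjustment over all of them. Pairs were compared where both genes had more than 3 counts in every library (8 of 15 pairs listed). Near-identical transcripts were sought with BLAST 2.17.0 over the longest coding sequence. DESeq2 1.42.0 was an alternative. Upstream sequences came from RefSeq for 28 members. Planned protein features were not analysed here. The members, lists, motifs and tests were chosen with earlier results of these data known. Any member could be named, and by rule the 5 highest genes of the other lists, members needed for a count, and markers at 0 or detected. Outside that rule, C5ar2, Itgam, Itgax, Msln, Upk3b, Krt18, Csf1r, Cd68, Mrc1, Lyz2, Adig, Lipe, Car3, Plin1 and Lep were named after their values were seen.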

Additional observations from a re-analysis of the deposited data

How the results depend on the processing

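The count of detected complement genes was 12 to 16 at thresholds of 20, 5 and 0.5 CPM, 15 with DESeq2 size factors or raw totals, 14 per kilobase and 15 to 17 with a library left out. Mean levels with other library sizes moved by less than their SD. Of the pair differences, 54 of 56 alternative values kept their sign. C1s1 minus Serping1 turned to 0.045 with no length correction, and Clu minus Vtn to -0.054 without replicate 1 (0.25 without replicate 2). With coding length, an alternative added after the data were seen, Clu minus Vtn was 0.98, C4b minus C2 -1.69 and Cr1l minus Cd59a 1.76. With no length correction these were 0.90, -0.52 and 3.54. The signs of Clu minus Vtn and Cr1l minus Cd59a were then the same in all 3 libraries. Coding length from RefSeq proteins was not run. Folds and ratios per kilobase against genes at or near 0 counts used exon length alone and were not recomputed with coding length. Genes called in libraries 1, 2 and 3 were 126, 199 and 197 with DESeq2's Wald test, and 16, 16 and 36 with edgeR and no count filter, 0 of them members. The cause was not tested. Leaving out a library was not possible for this test, since 1 library on each side leaves no replicate. No paired comparison between groups was possible because the labels give 1 group. Members with 3 counts or fewer in every library lay at or below the 3-count limit, and whether depth limited their detection was not tested.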
